A study of Mus musculus with 6 samples.

Results

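The glutathione synthesis and cysteine supply genes of mouse muscle stem cells were taken as 10 genes by symbol: Gclc, Gclm, Gss, Gsr, Slc7a11, Slc3a2, Cbs, Cth, Slc1a4 and Slc1a5. All 10 were among the 12067 genes of the deposited expression table, and all 10 were among the 10609 genes tested. RNA was sequenced from 6 libraries of muscle stem cells (satellite cells, which rebuild muscle fibres), described as quiescent, of male C57BL/6 mice. The cells came from limb muscle by the gate CD45- CD31- Sca1- VCAM+, were then labelled with the thiol dye ThiolTracker Violet (5 uM) as a measure of reduced glutathione (GSH), and were resorted. The young group (4 months) kept all stained cells, nearly all of them GSH-high per the labels, with 1 animal in each of 2 libraries. The old group (23 months) was divided by the dye into old GSH-high and old GSH-low cells, with 2 libraries of each and 2 animals pooled per library. The libraries are named young 1 and 2, high 1 and 2 (old GSH-high) and low 1 and 2 (old GSH-low). Whether the 2 old fractions came from the same pools of animals is not stated. Since old cells were gated on glutathione and young cells were not, age and gate cannot be told apart in a comparison of 1 old fraction with young.

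Glutathione is a tripeptide of glutamate, cysteine and glycine and the main thiol antioxidant of the cell. Glutamate-cysteine ligase, made of the catalytic subunit Gclc and the modifier subunit Gclm, joins glutamate to cysteine in the rate-limiting step, and glutathione synthetase (Gss) adds glycine. Glutathione reductase (Gsr) returns oxidised glutathione to the reduced form. Cysteine, usually the scarcest of the 3 amino acids, is brought in as cystine by system xc-, which pairs the transporter Slc7a11 with the chaperone chain Slc3a2, or made from homocysteine by Cbs and Cth (transsulfuration). Slc1a4 and Slc1a5 exchange neutral amino acids such as serine, alanine, cysteine and glutamine. The transcription factors NRF2 (Nfe2l2) and ATF4 are known to drive several of these genes.

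Promoter sequences are shown for Slc7a11 and Gclm, the genes whose promoters held a match to the core motif of 1 of these factors. RefSeq (GRCm38.p6) gave the 250 bases before the start for 6 of the 10 genes: Gclm, Gss, Slc7a11, Slc3a2, Cbs and Slc1a4. A pair of motifs was searched on both strands. The core of the C/EBP-ATF response element bound by ATF4, TGATGNAA, was found at 3.45% of 32851 RefSeq promoters of that length. The core of the antioxidant response element bound by NRF2, TGACNNNGC, was found at 10.2%. The Slc7a11 promoter (chr3:50443614-50443863, minus strand) held 2 matches to TGATGNAA and none to TGACNNNGC, and the Gclm promoter (chr3:122245307-122245556, plus strand) held 1 match to TGACNNNGC and none to TGATGNAA. The other 4 promoters held neither set of letters. Each promoter is written 5′ to 3′ on the gene's own strand, with the matches in capitals.
Slc7a11: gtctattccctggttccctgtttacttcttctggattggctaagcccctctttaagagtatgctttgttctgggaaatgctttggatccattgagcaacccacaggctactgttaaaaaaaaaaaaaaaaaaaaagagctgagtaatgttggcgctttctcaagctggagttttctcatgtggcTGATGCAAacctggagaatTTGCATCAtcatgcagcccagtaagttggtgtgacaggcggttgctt
Gclm: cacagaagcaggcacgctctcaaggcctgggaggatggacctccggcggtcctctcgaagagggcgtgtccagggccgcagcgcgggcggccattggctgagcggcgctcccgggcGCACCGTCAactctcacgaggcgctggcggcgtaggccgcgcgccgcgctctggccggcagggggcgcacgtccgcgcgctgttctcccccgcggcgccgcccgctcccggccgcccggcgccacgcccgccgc
In Slc7a11 the matches began 66 bases before the start on the gene's strand and 47 bases before it on the other strand. In Gclm the match began 134 bases before the start, on the other strand. A match describes the letters in the window and is not a measured binding site.

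Sequencing depth and purity touch every value that follows. The reads recovered from the table came to 47.01 M to 68.81 M per library, with the lowest depth in the old GSH-low libraries. All 10 satellite-cell markers, Pax7 and Myf5 among them, were present, and their summed RPKM (reads scaled to exon length and library size) was 3784 to 4018 in young, 3476 to 3655 in old GSH-high and 3003 to 3125 in old GSH-low libraries. Sdc4 was the largest part of each sum, at 1336 to 1954 RPKM per library. The members of these sums did not move together. Myod1 was at 688 and 674 RPKM in young, 877 and 759 in old GSH-high, and 630 and 594 in old GSH-low. It was not called in any comparison. Pax7, the defining transcription factor of these cells, was at 7.93 and 7.64 RPKM in young, 8.09 and 8.65 in old GSH-high, and 11.2 and 12.6 in old GSH-low, and was called higher in old GSH-low against young (0.55, adjusted p = 0.00206, limma-trend) and against old GSH-high (0.46, adjusted p = 0.0225). In old GSH-low 5 of the 10 markers were called lower than in young (Calcr, Des, Itga7, Sdc4 and Chrdl2), and in old GSH-high 3 were (Calcr, Des and Chrdl2). Of all genes tested, 18.7% and 13.7% were called lower. Markers of other cell types differed between the groups. The summed RPKM of 9 tenocyte markers was 36.0 to 38.4 in young, 642 to 812 in old GSH-high and 2676 to 3067 in old GSH-low libraries. For 10 fibro-adipogenic progenitor markers the sums were 1093 to 1199, 1237 to 1275 and 1605 to 1749.6, and for 8 macrophage and neutrophil markers 11.4 to 13.1, 69.3 to 70.6 and 59.9 to 63.7. The sums of 13 endothelial markers were 41.8 to 48.4, 92.9 to 95.1 and 22.7 to 28.1. The sums of 5 lymphocyte markers were 1.03 to 1.13, 2.19 to 3.35 and 22.01 to 23.9, with Ms4a1 at 0 reads in at least 1 library, and those of 8 myofibre markers were 43.3 to 43.9, 24.7 to 27.5 and 52.6 to 53.7. All 4 tested lymphocyte markers and 5 of 6 tested myofibre markers were called higher in the GSH-low of the old fractions. Of all genes tested, 3.69% were called higher there. Genes were tested if they reached 1 RPKM in 2 libraries. The young and old GSH-high lymphocyte sums were too low for all 4 to pass without old GSH-low, the group where they were called higher. Pericyte and smooth muscle sums (9 markers) were 186.2 to 195.2, 140.4 to 161.8 and 157.9 to 162.1, and Schwann cell sums (8 markers) 34.5 to 35.1, 47.1 to 48.0 and 42.9 to 46.2. The pericyte and smooth muscle sums did not follow most of their markers. Of 8 tested, 6 were called higher and 1 lower in old GSH-high against young, and 5 higher and 1 lower in old GSH-low. Shares of all genes called were 28.8% and 36.8%. Between the old fractions 4 of the 8 were called higher in old GSH-low, beside 5.38% of all genes called. Fibro-adipogenic progenitor and Schwann cell sums did not follow all of their markers either. Of the 10 fibro-adipogenic progenitor markers, 7 were called higher and 1 lower in old GSH-high against young, and 6 higher and 2 lower in old GSH-low. Between the old fractions 2 were called higher and 2 lower in old GSH-low, with a median of 0.01. Of 6 tested Schwann cell markers, 2 were higher and 1 lower there. The part of these other markers in the changes below was not tested. In bulk RNA, fewer cells of a type and less RNA per cell cannot be told apart.

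Values are given as RPKM and changes as log2 fold changes of RPKM + 1 with their SE, from limma-trend across all genes tested. The threshold for a call was an adjusted p (Benjamini-Hochberg) under 0.05. With 2 libraries in a group, each p-value tests a difference of means against a spread pooled over the 3 groups. Limma-trend draws that spread towards its trend over all genes tested, so a p-value does not measure the spread of a single group. Both comparisons with young use the same young libraries.

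Most of the 10 genes differed between old and young cells. Against young, 7 of 10 rose and 1 fell in old GSH-high cells, where 28.8% of all genes tested were called (15.1% higher and 13.7% lower). In old GSH-low cells 6 of 10 rose and 2 fell, where 36.8% of all genes were called (18.1% higher and 18.7% lower). The median log2 fold change of the 10 genes was 0.45 in old GSH-high and 0.33 in old GSH-low cells, beside -0.0037 and -0.02 over all genes. Between the old fractions none of the 10 genes was called by limma-trend, where 5.38% of all genes were called (3.69% higher and 1.69% lower). At an unadjusted p under 0.05 there were 3 (Slc7a11, Gclm and Slc1a5), beside 2040 of 10609 genes. On recovered reads limma-voom called 1 of the 10, Slc7a11, and 6.05% of all genes. Against young, limma-voom called 8 of the 10 in each old fraction, beside 31.8% of all genes in old GSH-high and 37.2% in old GSH-low. By the libraries themselves, 7 of the 10 genes had both old libraries above both young ones and 2 had both below, in old GSH-high (66.1% of all genes without overlap, 32.4% above and 33.7% below) as in old GSH-low (69.1%, 32.6% above and 36.5% below).

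**Figure D1:**
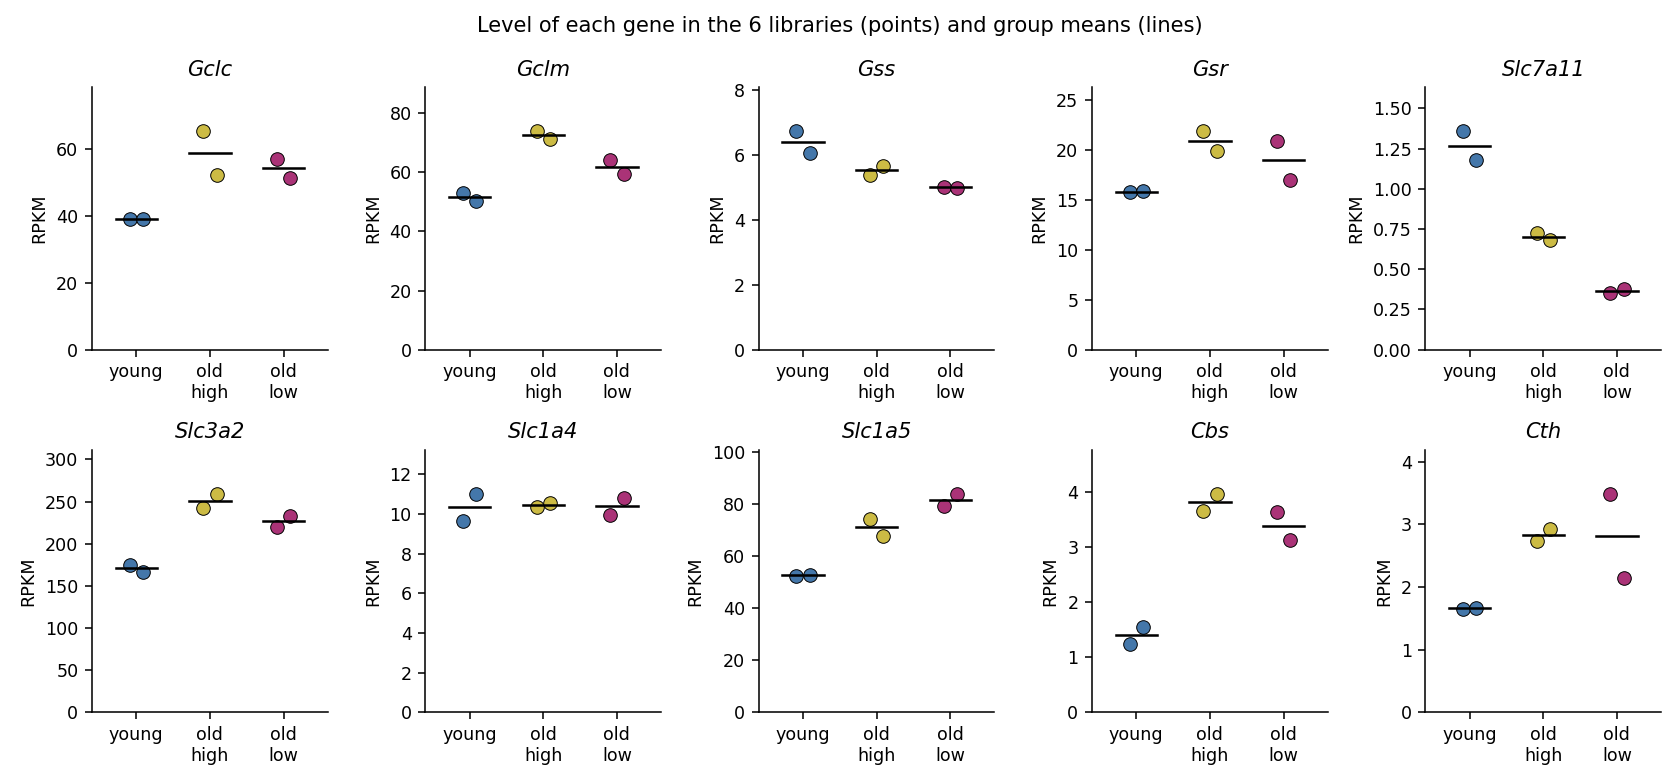
RPKM (linear axes from 0, with a scale for each gene) of the 10 genes by group (young, old high for GSH-high, old low for GSH-low), with a point for each library and a line at the group mean. Slc7a11 steps down from young to old GSH-high to old GSH-low, while Gclc, Gclm, Gsr, Slc3a2, Slc1a5, Cbs and Cth are lowest in both young libraries.

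The subunits of glutamate-cysteine ligase were both higher in old cells. Gclc, the catalytic subunit (chromosome 9, 77754535 to 77794485, GRCm38), was at 38.9 RPKM in each young library, at 65.2 and 52.2 in old GSH-high, and at 56.8 and 51.3 in old GSH-low. All 4 old libraries lay above both young ones, and the old fractions overlapped. Gclc rose by 0.57 ± 0.11 in old GSH-high (adjusted p = 0.00609, limma-trend with Benjamini-Hochberg adjustment) and by 0.46 ± 0.11 in old GSH-low (adjusted p = 0.0128). High 1 stood above its partner, and without it the first change was 0.41 with an adjusted p of 0.0615. Without low 1 the second was 0.39 with an adjusted p of 0.101. Gclm, the modifier subunit that lowers feedback inhibition of the enzyme (chromosome 3, 122245557 to 122270732), was at 52.9 and 50.3 RPKM in young, 73.9 and 71.3 in old GSH-high, and 64.3 and 59.3 in old GSH-low. The 3 groups did not overlap: old GSH-high was highest, old GSH-low lay between and young was lowest. Gclm rose by 0.49 ± 0.08 in old GSH-high (adjusted p = 0.00313, limma-trend), a call that held with each of the 6 libraries left out in turn. The smaller rise of 0.26 ± 0.08 in old GSH-low (adjusted p = 0.0417) was not called without young 2 (0.0771), high 1 (0.0889) or 2 (0.0886), or low 1 (0.259) or 2 (0.0798). Between the old fractions Gclm differed by -0.23, with a 95% interval from -0.42 to -0.04 and an adjusted p of 0.176. The ratio of Gclm to Gclc RPKM was 1.36 and 1.29 in young, 1.13 and 1.37 in old GSH-high, and 1.13 and 1.16 in old GSH-low, so that the old GSH-low libraries lay below both young ones and the old GSH-high libraries spanned them. Gclm shares 296 exon bases (4.71% of its exon length) with Gm17494 on the other strand, and the strand of the reads is not stated.

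Glutathione synthetase did not follow the ligase. Gss (chromosome 2, 155563181 to 155592810) was at 6.73 and 6.07 RPKM in young, 5.37 and 5.66 in old GSH-high, and 5.00 and 4.99 in old GSH-low. Both young libraries were highest and both old GSH-low libraries lowest, with no overlap. Gss fell by 0.30 ± 0.09 on the log2 scale in old GSH-low (adjusted p = 0.0289, limma-trend), while in old GSH-high the difference was -0.18 (95% interval -0.39 to 0.02, adjusted p = 0.162). The fall in old GSH-low was not called without young 1 (0.0932), high 1 (0.0552) or 2 (0.0554), or low 1 (0.128) or 2 (0.114), nor when libraries were scaled to library size only (0.0634). The ratio of Gclm to Gss RPKM was 7.87 and 8.29 in young libraries, 13.8 and 12.6 in old GSH-high and 12.9 and 11.9 in old GSH-low. Gss shares 395 exon bases (6.68%) with Acss2 on the other strand and also overlaps the antisense genes Gssos1 and Gssos2, so that its reads cannot be assigned with certainty.

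Gsr, the reductase that recycles glutathione (chromosome 8, 33652523 to 33698163), was at 15.8 and 15.9 RPKM in young, 21.9 and 19.9 in old GSH-high, and 20.9 and 17.1 in old GSH-low. All old libraries were above the young ones, and the old fractions overlapped. Gsr rose by 0.38 ± 0.11 in old GSH-high (adjusted p = 0.0298, limma-trend). That call was lost without young 1 (0.0747) or 2 (0.0518), or high 1 (0.200) or 2 (0.0682). In old GSH-low the difference of 0.24 was not called (95% interval -0.0038 to 0.49, adjusted p = 0.112), but it was called without low 2 (0.38, adjusted p = 0.0462).

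Slc7a11, the transport chain of system xc- that exchanges cystine for glutamate, was the lowest of the 10 genes in every group and fell in both old fractions. The gene lies on chromosome 3 (49892526 to 50443614). It was at 1.36 and 1.18 RPKM in young (1150 and 964 reads), 0.726 and 0.680 in old GSH-high (699 and 586 reads), and 0.353 and 0.379 in old GSH-low (252 and 254 reads). Genes tested had to reach 1 RPKM in 2 libraries. Slc7a11 did so in the young libraries alone, so it was tested only through the group from which it fell. The 3 groups formed 3 steps with no overlap, and the 95% Poisson intervals of the reads did not overlap between groups either (0.673 to 0.782 and 0.626 to 0.738 RPKM in old GSH-high, 0.310 to 0.399 and 0.334 to 0.429 in old GSH-low). These intervals cover counting error only. The mean in old GSH-low was 0.288 of the young mean, and in old GSH-high it was 0.554.

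The size of the Slc7a11 change depended on the scale, because the added 1 RPKM is close to the level of the gene. On log2(RPKM + 1), Slc7a11 fell by 0.41 ± 0.10 in old GSH-high (adjusted p = 0.0154, limma-trend) and by 0.73 ± 0.10 in old GSH-low (adjusted p = 0.000690) against young. With 0.1 RPKM added the changes were -0.77 and -1.55, and by limma-voom on the recovered reads they were -0.85 (adjusted p = 0.000851) and -1.79 (adjusted p = 1.20e-05). The fall in old GSH-low was called with each library left out. On log2(RPKM + 1) the fall in old GSH-high was not called without young 1 (0.0821) or high 1 (0.0696) or 2 (0.0809).

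The difference of Slc7a11 between the old fractions was called on 1 scale and not on the others. The mean in old GSH-low was 0.520 of that in old GSH-high. The change was -0.32 ± 0.10 by limma-trend (95% interval -0.55 to -0.09, adjusted p = 0.121), -0.79 with 0.1 RPKM added (adjusted p = 0.0879) and -0.94 ± 0.18 by limma-voom (adjusted p = 0.00718). With limma-voom the call held without either young library (adjusted p 0.00287 and 0.00298) and without high 2 (0.0277). It was lost without high 1 (0.0534) or low 1 (0.102) or 2 (0.0537). The summed satellite-cell markers, of which Sdc4 was the largest part, were also highest in young and lowest in old GSH-low libraries. Between the old fractions 9 of the 10 markers were not called, beside 5.38% of all genes called. The other, Pax7, was higher in old GSH-low. The part of these markers in the Slc7a11 values was not tested.

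**Figure D2:**
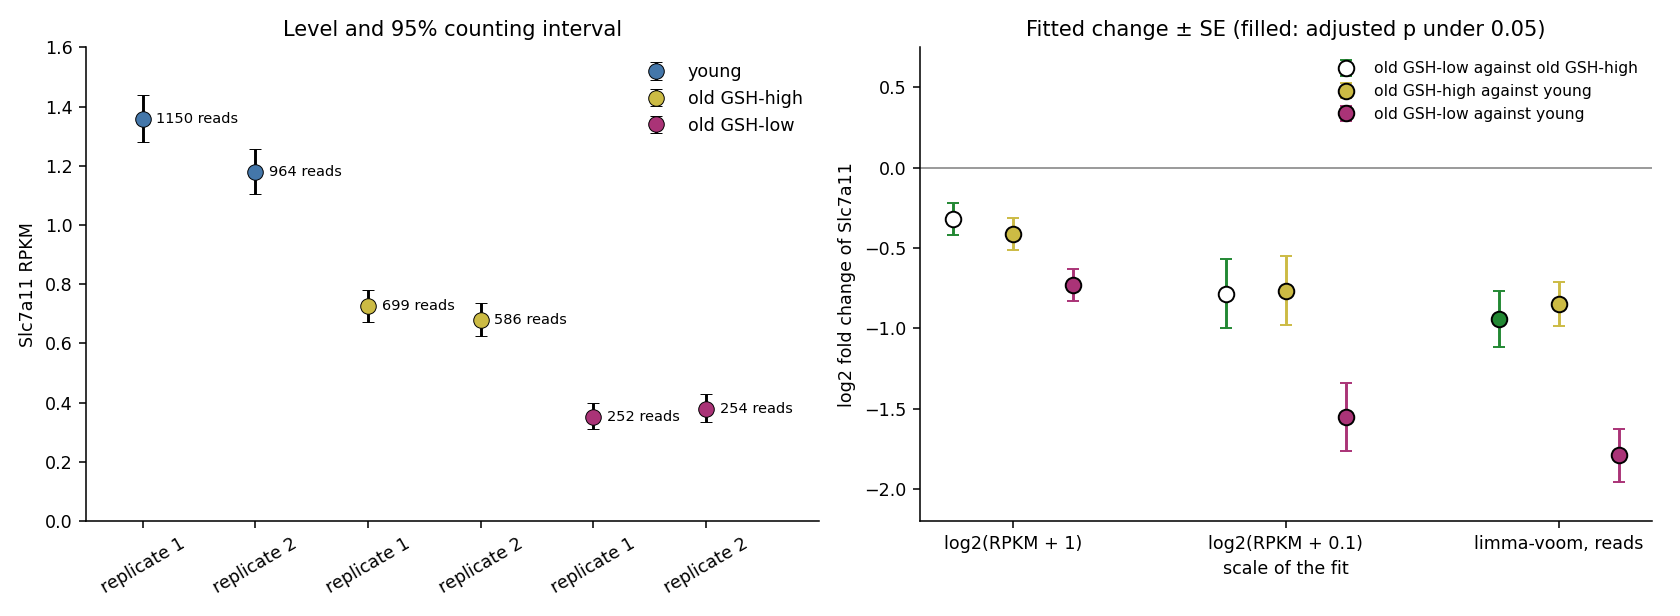
Left, Slc7a11 RPKM in each library with its 95% Poisson interval and read number. Right, fitted log2 fold change ± SE in the 3 comparisons with 1 RPKM added, with 0.1 RPKM added and by limma-voom: the change of old GSH-low against old GSH-high goes from -0.32 to -0.94 and is called in the last only.

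Slc3a2, the chain that carries Slc7a11 to the membrane and also pairs with Slc7a5 and other light chains, was the most abundant of the 10 genes and rose in both old fractions. It lies on chromosome 19 (8706882 to 8723369) and was at 174.4 and 166.9 RPKM in young, 242.1 and 259.4 in old GSH-high, and 220.1 and 233.0 in old GSH-low. Old GSH-high was highest and young lowest, with no overlap of the 3 groups. Slc3a2 rose by 0.55 ± 0.09 in old GSH-high (adjusted p = 0.00189, limma-trend), with each library left out as well. In old GSH-low it rose by 0.41 ± 0.09 (adjusted p = 0.00676), which was not called without low 2 (0.0616). The RPKM ratio of Slc3a2 to Slc7a11 was 128 and 142 in young, 334 and 381 in old GSH-high, and 624 and 615 in old GSH-low, with no overlap between groups. The ratio to Slc7a5, its partner in large neutral amino acid transport, was 1.41 and 1.23 in young, 1.65 and 1.83 in old GSH-high, and 1.75 and 1.80 in old GSH-low. RPKM ratios between genes depend on the lengths used: the exon length of Slc7a11 was 13922 bases, and its longest annotated transcript has 9223.

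Of the neutral amino acid exchangers, Slc1a5 rose and Slc1a4 did not pass the test. Slc1a5, best known as the glutamine exchanger (chromosome 7, 16781340 to 16798274), was at 52.5 and 52.8 RPKM in young, 74.3 and 67.9 in old GSH-high, and 79.2 and 84.0 in old GSH-low. It was the only one of the 10 genes with both old GSH-low libraries above both old GSH-high ones. Slc1a5 rose by 0.62 ± 0.08 in old GSH-low (adjusted p = 0.000674, limma-trend), with each library left out as well. In old GSH-high it rose by 0.42 ± 0.08 (adjusted p = 0.00640), which was not called without high 1 (0.0868). Between the old fractions the difference was 0.20, with a 95% interval from 0.01 to 0.39 and an adjusted p of 0.250. Slc1a4, which carries alanine, serine and cysteine (chromosome 11, 20302180 to 20332713), was at 9.64 and 11.03 RPKM in young, 10.4 and 10.6 in old GSH-high, and 9.98 and 10.8 in old GSH-low. The groups overlapped throughout. The difference from young was 0.02 in old GSH-high (95% interval -0.20 to 0.23, adjusted p = 0.900, limma-trend) and 0.01 in old GSH-low (-0.20 to 0.22, adjusted p = 0.944).

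The transsulfuration genes had low levels and were higher in old cells. Cbs, which condenses homocysteine with serine (chromosome 17, 31608894 to 31637238), was at 1.24 and 1.54 RPKM in young, 3.66 and 3.96 in old GSH-high, and 3.62 and 3.12 in old GSH-low. Every old library was above both young ones, and the old GSH-low libraries lay just below the old GSH-high ones. The group mean was 2.73 times the young mean in old GSH-high and 2.42 times in old GSH-low, the largest ratios among the 10 genes. Cbs rose by 1.01 ± 0.11 (adjusted p = 0.000261, limma-trend) and 0.87 ± 0.11 (adjusted p = 0.000413), and both calls held with each library left out.

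Cth, which splits cystathionine to release cysteine (chromosome 3, 157894248 to 157925077), was at 1.64 and 1.67 RPKM in young, 2.73 and 2.92 in old GSH-high, and 3.49 and 2.14 in old GSH-low. All old libraries were above the young ones, and the 2 old GSH-low libraries lay on either side of old GSH-high. Those 2 libraries rested on 500 and 288 reads, and their 95% Poisson intervals (3.19 to 3.81 and 1.90 to 2.41 RPKM) did not overlap. Cth rose by 0.53 ± 0.15 in old GSH-high (adjusted p = 0.0323, limma-trend) and by 0.50 ± 0.15 in old GSH-low (adjusted p = 0.0326). The first call was lost without young 1 (0.0980) or 2 (0.0666), or high 1 (0.0998) or 2 (0.127). The second was lost without young 1 (0.0917) or 2 (0.0725), or low 1 (0.24, adjusted p = 0.212). The ratio of Cbs to Cth RPKM was 0.756 and 0.924 in young libraries, below 1.04 to 1.46 in all 4 old libraries.

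**Figure D3:**
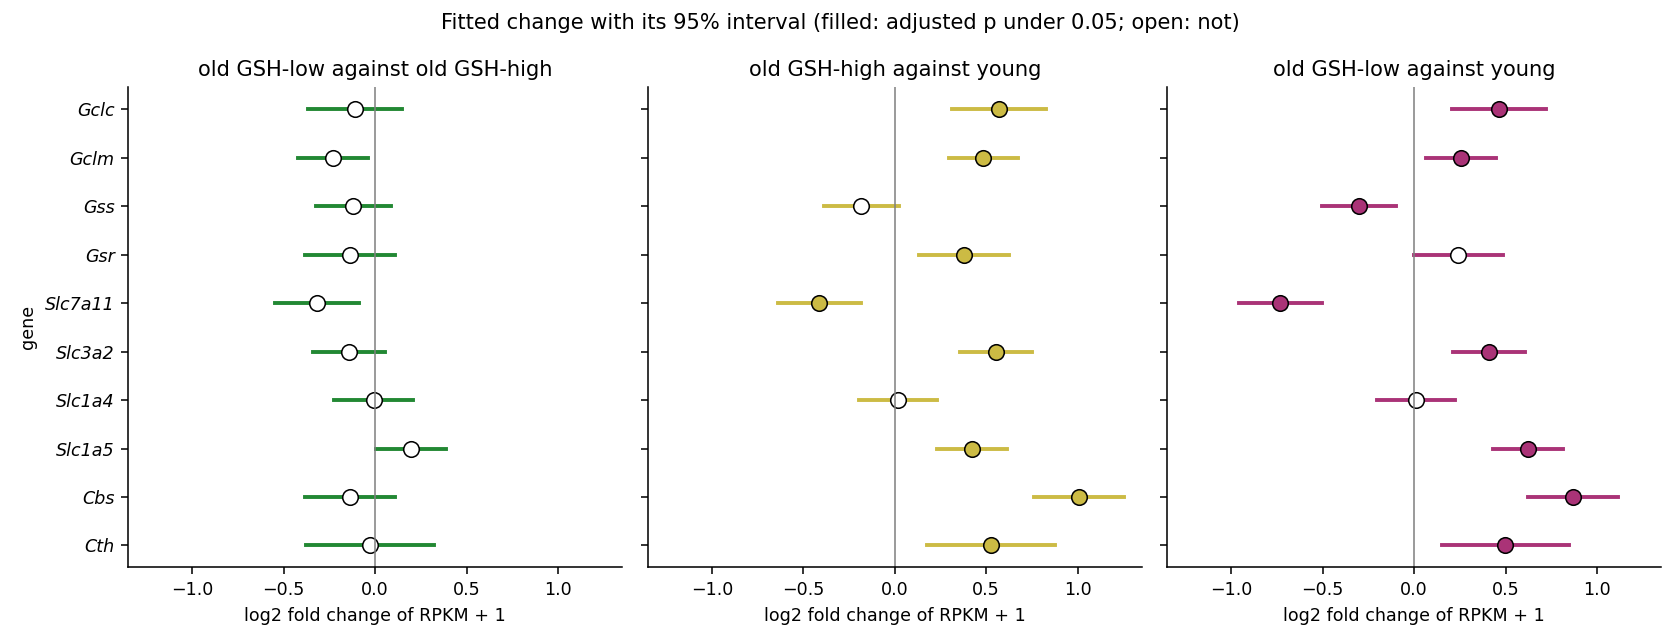
Log2 fold change of RPKM + 1 with its 95% interval for the 10 genes in the 3 comparisons, filled where the adjusted p was under 0.05. In the comparisons with young, 7 and 6 filled points lie to the right, and Slc7a11 (and Gss in old GSH-low) to the left, while every point of old GSH-low against old GSH-high is open.

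Between the old fractions, 1 of the 10 genes had both old GSH-low libraries above both old GSH-high ones (Slc1a5), 5 had both below (Gclm, Gss, Slc7a11, Slc3a2 and Cbs) and 4 overlapped, beside 55.5% of all genes without overlap (25.7% above and 29.8% below). The median difference of the 10 was -0.13, beside -0.01 over all genes. The 95% interval of the difference was -0.37 to 0.15 for Gclc, -0.32 to 0.08 for Gss, -0.38 to 0.11 for Gsr, -0.34 to 0.05 for Slc3a2, -0.39 to 0.11 for Cbs, -0.38 to 0.32 for Cth and -0.22 to 0.20 for Slc1a4. These intervals leave room for differences of some size in either direction.

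The genes whose levels over the 6 libraries were most like 3 of the members are given as a description, from Pearson r of log2(RPKM + 0.1). For Slc7a11 they were the chemokine Cxcl3 (r = 0.999), Znrf1 (0.998) and Wdr45b (0.997), and 2.92% of genes tested had r above 0.95. For Gclc they were the potassium channel Kcnk5 (0.998), Faf1 (0.997) and Mogs (0.995), with 1.28% of genes above 0.95. For Gclm they were the growth factor Bmp4 (0.999), Ddx20 (0.996) and Prpf4 (0.994), with 1.15% above 0.95. Cxcl3 was at 102.0 and 84.0 RPKM in young, 58.6 and 55.1 in old GSH-high, and 33.8 and 34.6 in old GSH-low. With 3 groups of 2 libraries, any gene with a similar spacing of group means and little spread within groups has a high r.

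The other genes of the pathway were taken from 7 lists, which together held 120 distinct tested genes. Of these 48 (40.0%) were called in old GSH-high against young and 61 (50.8%) in old GSH-low, beside 28.8% and 36.8% of all genes. The counts of single lists below stand against those same shares of all genes, and none of them was tested against other genes. The methionine cycle and cysteine use list, which holds enzymes upstream of Cbs and enzymes that use cysteine or handle its sulphur, had 5 of 21 tested genes higher and 3 lower in old GSH-high, and 5 higher and 5 lower in old GSH-low, against young. Cdo1, cysteine dioxygenase, which uses up cysteine by oxidising it, was at 1.43 and 1.59 RPKM in young, 7.18 and 6.30 in old GSH-high, and 3.83 and 2.92 in old GSH-low. The 3 groups did not overlap, with old GSH-high highest. Cdo1 rose by 1.62 ± 0.12 in old GSH-high (adjusted p = 3.77e-05, limma-trend) and by 0.79 ± 0.12 in old GSH-low (adjusted p = 0.00131). It was the only gene of the list called between the old fractions, lower by 0.83 ± 0.12 on the log2 scale in old GSH-low (adjusted p = 0.00426), and all 3 calls held with each library left out. The endothelial marker sums were also highest in old GSH-high libraries, as were those of 4 fat cell markers (8.79 to 8.97 in young, 69.6 to 89.7 in old GSH-high, 4.23 to 5.44 in old GSH-low), of which Adipoq, Cidec and Cfd had at least 1 library at 0 reads. Fabp4 belongs to both marker lists, so the endothelial and fat cell sums are not independent. The part of these markers in the Cdo1 values was not tested.

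Ahcy, which releases homocysteine from S-adenosylhomocysteine, fell from 27.1 and 26.3 RPKM in young to 16.1 and 14.6 in old GSH-high and 14.7 and 13.8 in old GSH-low. The changes were -0.76 ± 0.09 (adjusted p = 0.000326, limma-trend) and -0.86 ± 0.09 (adjusted p = 0.000122), with no overlap of old and young. Mat2b, a regulatory subunit of S-adenosylmethionine synthetase, fell by 0.55 and 0.71 on the log2 scale. Its catalytic partner Mat2a rose by 0.37 (adjusted p = 0.0167, limma-trend) and 0.40 (adjusted p = 0.00982). The Mat2a calls were lost without high 1 (0.157) or 2 (0.0633), and without low 1 (0.108). The list's count of genes that rose in old GSH-high was 1 without high 1 and 2 without high 2, and in old GSH-low it was 3 higher and 3 lower without low 1.

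Among genes of glutathione breakdown, the number called was close to the share of all genes called (28.8% and 36.8%). In old GSH-high 3 of 9 rose (Dpep1, Anpep and Ggt7) and none fell, and in old GSH-low 3 rose (Dpep1, Anpep and Chac1) and 1 fell (Lap3). Anpep reached 1 RPKM, the level needed for a test, in the old GSH-low libraries alone. Without young 2, 2 fell in each old fraction. Dpep1, the dipeptidase that splits cysteinylglycine, was at 1.22 and 1.07 RPKM in young, 9.38 and 7.36 in old GSH-high, and 6.21 and 4.48 in old GSH-low. It rose by 2.12 ± 0.15 (adjusted p = 2.68e-05, limma-trend) and 1.55 ± 0.15 (adjusted p = 0.000105), with no overlap of the 3 groups. Chac1, which degrades glutathione inside the cell, was at 15.8 and 11.5 RPKM in young and 18.3 and 18.2 in old GSH-low. Its rise of 0.41 ± 0.13 (adjusted p = 0.0394, limma-trend) was lost without each library but young 1 (adjusted p 0.0573 to 0.141), and without young 2 the log2 fold change itself was smaller, at 0.19 (adjusted p = 0.117). Ggct, which handles gamma-glutamyl amino acids, differed from young by 0.17 and 0.22 and was not called.

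Among 19 amino acid supply genes, 3 rose and 3 fell in old GSH-high, and 4 rose and 3 fell in old GSH-low, near the shares of all genes called (28.8% and 36.8%). In old GSH-high 1 rose and 1 fell without high 2, and 7 rose with library size alone as scaling. In old GSH-low 1 rose without low 1 and 2 without low 2. Slc7a8, a light chain of Slc3a2 for neutral amino acids, was at 30.9 and 32.6 RPKM in young, 56.4 and 50.7 in old GSH-high, and 42.4 and 39.3 in old GSH-low. It rose by 0.73 ± 0.09 in old GSH-high (adjusted p = 0.000502, limma-trend) and by 0.35 ± 0.09 in old GSH-low (adjusted p = 0.0150, and 0.121 without low 1). Slc7a5 was at 123.9 to 146.3 RPKM in all libraries and was not called in any comparison. Shmt1, which makes glycine from serine, fell by 0.72 ± 0.09 (adjusted p = 0.000689, limma-trend) and 0.92 ± 0.09 (adjusted p = 0.000136). Slc1a1, a glutamate and cysteine carrier, was below the filter. Of 9 tested genes of a transport list, which holds carriers of glutathione and cystine and transporters with other main substrates such as Slco2a1, a prostaglandin carrier, 2 rose (Slco2a1 and Abcg2) and 1 fell (Slc25a39) in old GSH-high, and 3 rose (Slco2a1, Ctns and Mfsd12) and 1 fell (Slc25a39) in old GSH-low. In old GSH-high 1 rose without young 1 or high 2 and none fell without high 1 or 2, while 3 rose and 2 fell without young 2. In old GSH-low 1 rose without low 1. Slc25a39, the mitochondrial glutathione carrier, fell by 0.47 in old GSH-high (adjusted p = 0.0114, limma-trend, lost without high 1 at 0.0731 or 2 at 0.0645) and by 0.56 in old GSH-low (adjusted p = 0.00414). Slco2a1 had rises of 1.56 and 1.08. Mfsd12 reached 1 RPKM, the level needed for a test, in the old GSH-low libraries alone (1.05 and 1.11).

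Of 26 NRF2 targets other than the 10 genes, 13 rose and 3 fell in old GSH-high, where 15.1% of all genes rose and 13.7% fell, and 12 rose and 4 fell in old GSH-low, where 18.1% rose and 18.7% fell. Their median log2 fold changes were 0.36 and 0.31. With 1 library left out, 10 to 14 rose in old GSH-high, and 7 to 13 rose in old GSH-low, with 7 without low 1 and 8 without young 2. Hmox1, heme oxygenase 1, was at 659.9 and 597.3 RPKM in young, 1493 and 1337 in old GSH-high, and 1084 and 1020.3 in old GSH-low. It rose by 1.17 ± 0.10 (adjusted p = 9.46e-05, limma-trend) and 0.74 ± 0.10 (adjusted p = 0.000812). Aldh3a1, an aldehyde dehydrogenase, rose by 1.99 ± 0.08 and 1.61 ± 0.08, from 4.20 and 4.39 RPKM in young to 20.3 and 19.6 in old GSH-high and 15.3 and 15.1 in old GSH-low. The NADPH-producing malic enzyme Me1, the pentose phosphate enzyme Tkt and the epoxide hydrolase Ephx1 also rose in both, by 0.67 to 0.85. G6pdx, which makes the NADPH that Gsr uses, was at 8.36 and 8.69 RPKM in young, 12.1 and 12.2 in old GSH-high, and 8.06 and 7.80 in old GSH-low, so that old GSH-high alone stood apart. It rose by 0.47 ± 0.08 in old GSH-high (adjusted p = 0.00333, limma-trend), and the difference from young in old GSH-low was -0.09 (adjusted p = 0.402).

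The regulators of NRF2 did not move together: 2 of 10 rose and 3 fell in old GSH-high, and 2 rose and 4 fell in old GSH-low, beside 28.8% and 36.8% of all genes called. In old GSH-high none rose without high 1 or 2, and 1 rose without young 2, low 1 or low 2. In old GSH-low none rose and 2 fell without low 1 or 2, and 1 rose without young 2, high 1 or high 2. Nfe2l2 was at 64.6 and 62.4 RPKM in young, 80.5 and 80.8 in old GSH-high, and 79.4 and 78.2 in old GSH-low. It rose by 0.34 ± 0.08 (adjusted p = 0.0116, limma-trend) and 0.31 ± 0.08 (adjusted p = 0.0143). Both calls were lost without 1 old library of the fraction compared: high 1 (0.0964) or 2 (0.0888), and low 1 (0.103) or 2 (0.0712). Bach1, a repressor of NRF2 targets, fell from 39.9 and 33.0 RPKM in young to 23.0 and 24.9 in old GSH-high and 24.0 and 24.1 in old GSH-low, by 0.58 ± 0.10 (adjusted p = 0.00367, limma-trend) and 0.57 ± 0.10 (adjusted p = 0.00299) on the log2 scale. Maff, a small Maf partner, fell by 0.59 and 0.42. Keap1, which holds NRF2 for degradation, differed from young by 0.03 and 0.13 and was not called.

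Genes of the ATF4 list were called in both directions. Atf4 itself was at 298.2 to 336.1 RPKM in young and 366.8 to 381.2 in old libraries, without overlap, and was not called (0.23, adjusted p = 0.0983, and 0.24, adjusted p = 0.0730, limma-trend). It was called as higher in both old fractions without young 1 (adjusted p 0.0286 and 0.0187) and with library size alone as scaling (0.0361 and 0.0229), and in old GSH-low by limma-voom (0.0475). Of 34 genes of the list, 1 rose and 7 fell in old GSH-high, where 28.8% of all genes were called, and 7 rose and 9 fell in old GSH-low, where 36.8% were. The number that rose in old GSH-high was 5 without young 1, 3 without young 2 and 0 without high 2, and the number that fell was 4 without either old GSH-high library. With library size alone as scaling 4 rose. In old GSH-low, 3 rose and 3 fell without replicate 1 of that group, 2 rose without replicate 2, and 4 rose without young 2 or either old GSH-high library. Psat1 and Phgdh of serine synthesis fell in both fractions with each library left out. Psat1 fell by 0.76 ± 0.09 and 0.97 ± 0.09 on the log2 scale (adjusted p = 0.000302 and 5.81e-05, limma-trend), and Phgdh by 0.70 ± 0.12 and 0.86 ± 0.12 (adjusted p = 0.00341 and 0.000849). Slc3a2 and Slc7a11, which both belong among the known ATF4 targets, changed in opposite directions in both old fractions.

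Between the old fractions, 10 of the 120 distinct tested genes of the 7 lists were called (8.33%), where 5.38% of all genes were. Cdo1, the NRF2 targets G6pdx, Aldh3a1 and Pgd, the carrier Slc7a8 and the tryptophanyl-tRNA synthetase Wars were lower in old GSH-low. Higher were the stress genes Atf3, Ddit4 and Ddit3, and Anpep, which passed the filter through old GSH-low alone. Of these 10 genes, the call of Cdo1 alone held with each library left out. No NRF2 regulator and no gene of the transport list was called by limma-trend on all 6 libraries. Limma-voom called 13 genes of the lists, 9 of them shared with limma-trend. Those it added included Hmox1 (-0.43, adjusted p = 0.0146), the sulfiredoxin Srxn1 (-0.37, 0.0362; outside the rule for named genes and chosen after its value was seen) and the transporter Abcg2 (-0.70, 0.0343). With a replicate block on the 4 old libraries 21 were called, all 10 among them, and the 11 added included Dpep1 (-0.57, adjusted p = 0.00402), Slco2a1 (-0.47, 0.0120), Hmox1 (0.0119) and Lap3 (-0.34, 0.0203). With the block in all 6 libraries 6 were called, 5 of the 10 and Dpep1 (0.0264).

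**Figure D4:**
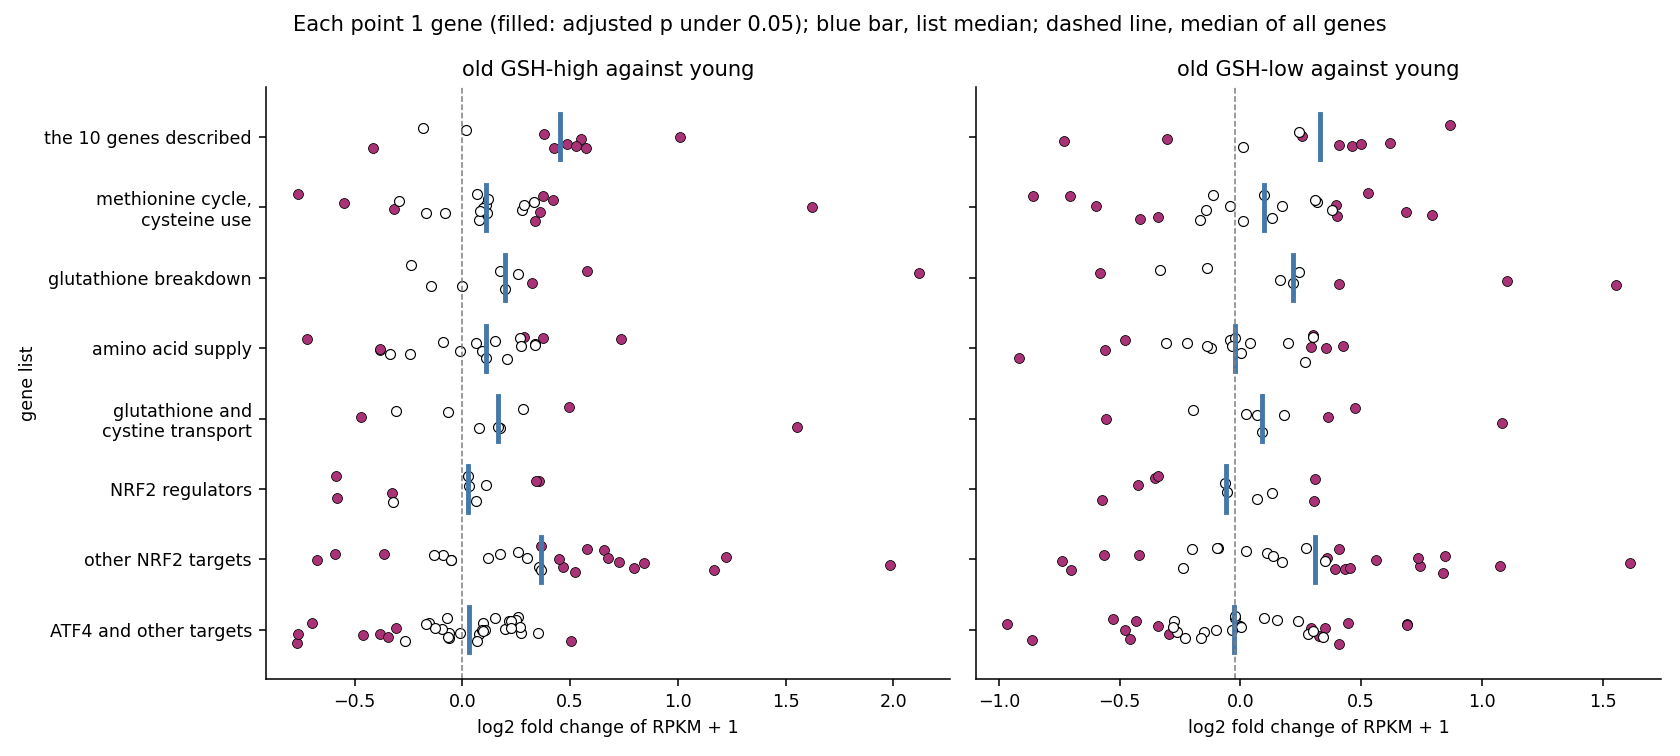
Log2 fold change of RPKM + 1 for each tested gene of the 10 described and of 7 other lists, in old GSH-high (left) and old GSH-low (right) against young, with the list median as a bar and the median of all genes as a dashed line. The 10 genes (0.45 and 0.33) and the NRF2 targets (0.36 and 0.31) have the medians farthest to the right, and some genes belong to 2 lists.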

How the data were processed

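The 6 libraries were made by oligo(dT) priming and sequenced as 150-base single reads, per the labels. The submitters' processing notes name Trim Galore, STAR, featureCounts (Subread) and edgeR without versions, and the build GRCm38 (mm10). The authors deposited RPKM. Solving RPKM for exon length and a constant per library gave whole reads for 99.99% of 12067 genes, within 0.02 reads plus a relative 3e-07. All 10 genes had the exon length of GENCODE M21, used for positions. The table holds no 0, and 230 values in 144 genes were read as replaced zeros. Strand is not given in the sources used here.

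The 10609 genes that reached 1 RPKM in 2 libraries were fitted as log2(RPKM + 1) by limma-trend (limma 3.58.1, R 4.3.3) with 3 group means over 6 libraries and 3 residual degrees of freedom, and Benjamini-Hochberg adjustment over all genes, two-sided. The code was tested on simulated data. Recovery and figures used Python 3.11.15 (matplotlib 3.10.9, scipy 1.17.1, pandas 2.3.3, numpy 2.4.6). Alternatives were limma-voom on recovered reads, a pseudocount of 0.1, other filters (none, or RPKM of at least 5) and scalings, 4 libraries only, replaced zeros at 0, a replicate block and each library left out. Limma-voom with a library left out or with the block was added for Slc7a11 after seeing the data.

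The 10 genes, 7 pathway lists and 10 marker lists were chosen with earlier results of these data known. Named are all 10 genes, up to 4 called genes per list and comparison in order of p, 10 further genes whatever their p, and the 3 genes most like Gclc, Gclm and Slc7a11; the text gives part of this set, and some genes are not reported here.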

Additional observations from a re-analysis of the deposited data

Results flagged for a closer look

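The following genes differed between the old fractions by limma-trend, which tests at the same time whether their change against the shared young libraries differed between old GSH-high and old GSH-low cells. Values are log2 fold changes of old GSH-low against old GSH-high with Benjamini-Hochberg adjusted p. Cdo1 was lower, at -0.83 (adjusted p = 0.00426), with each library left out as well. G6pdx was lower, at -0.56 (0.00413; 0.0514 without high 2). Aldh3a1 at -0.37 (0.0321) and Pgd, a further pentose phosphate enzyme, at -0.41 (0.0351) lost the call without each of the 4 old libraries in turn. Their changes were then -0.35 to -0.40 and -0.34 to -0.47. Slc7a8 at -0.38 (0.0458) lost the call in the same way, with changes of -0.31 to -0.46.

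Higher in old GSH-low were Atf3 at 0.62 (0.00655; 0.0830 without high 2 and 0.0807 without low 1) and Anpep at 0.53 (0.0261), which lost the call without high 2 (0.208) or low 1 (0.166) or 2 (0.0827). Ddit4 at 0.49 (0.0354) lost it without high 1 (0.172) or 2 (0.194) or low 1 (0.243). The call was lost without each of the 4 old libraries for Ddit3 at 0.51 (0.0464; 0.130 to 0.284) and for Wars, lower at -0.36 (0.0495; 0.166 to 0.360).

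Anpep was at 0.135 and 0.177 RPKM in young, 0.846 and 0.614 in old GSH-high, and 1.57 and 1.41 in old GSH-low. It passed the filter of 1 RPKM in 2 libraries through old GSH-low alone, the group where it was called higher. Other settings also ended calls. A replicate block in the fit of all 6 libraries did so for Aldh3a1 (0.0855), Pgd (0.0584), Slc7a8 (0.0925), Ddit3 (0.0620) and Wars (0.0925). A pseudocount of 0.1 RPKM ended Anpep (0.0834), Ddit3 (0.0558), Slc7a8 (0.0527) and Wars (0.0559), and limma-voom on recovered reads ended Ddit4 (0.0564). The filter of RPKM of at least 5 ended Ddit3 (0.0501), Slc7a8 (0.0555) and Wars (0.0520), and median-of-ratios scaling ended Wars (0.0513).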

How the results depend on the processing

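The number of the 10 genes called was 7 up and 1 down in old GSH-high and 6 up and 2 down in old GSH-low against young. With 1 library left out it was 3 to 8 and 4 to 6 genes, and 0 between the old fractions. A filter of RPKM of at least 5 left 5 called in each comparison with young, since Slc7a11, Cbs and Cth were then not tested. Limma-voom called 1 between the old fractions. Over all genes, 571 were called between the old fractions, 274 at RPKM of at least 5, 864 with only the 4 libraries compared, and 312 to 863 with 1 library left out. For old GSH-high against young the number was 3051 (1493 to 3802), and for old GSH-low against young 3901 (2068 to 4295). Library size alone as scaling moved the split from 1598 higher and 1453 lower to 1920 and 1126 in old GSH-high, and from 1919 and 1982 to 2249 and 1492 in old GSH-low. It ended the Gss call, brought Gsr in old GSH-low to an adjusted p of 0.0496, and turned Slc7a5 in old GSH-low from -0.024 to 0.045.

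The labels do not say whether equal replicate numbers mark shared animals, and 2 numbers are too few to settle it from the data, so the libraries were treated as unpaired. The deviations of same-numbered libraries correlated at 0.07 for the old fractions, -0.14 for old GSH-high with young and -0.26 for old GSH-low with young. A replicate block in the fit of all 6 libraries left 479, 2559 and 3350 genes called in the 3 comparisons, and a replicate block with the 4 old libraries gave 1067. In old GSH-low the block gave Gclm an adjusted p of 0.0708 and Gss 0.0580. With limma-voom the block kept Slc7a11 between the old fractions at 0.0102.

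Signs that turned with 1 library left out all belonged to values that were not called. Between the old fractions the ranges were -0.27 to 0.047 for Gclc (highest without high 1), -0.28 to 0.0046 for Gsr and -0.28 to 0.23 for Cth (both highest without low 2), -0.062 to 0.044 for Slc1a4, -0.050 to 0.064 for Bach1, -0.015 to 0.040 for Atf4, -0.36 to 0.029 for Phgdh, -0.053 to 0.11 for Mat2a, -0.12 to 0.20 for Ggct and -0.20 to 0.027 for Slc25a39. For old GSH-high against young they were -0.070 to 0.11 for Slc1a4, -0.083 to 0.14 for Keap1 and -0.24 to 0.11 for Ddit3. For old GSH-low against young they were -0.079 to 0.099 for Slc1a4 and -0.091 to 0.042 for Slc7a5. The cause was not tested. Depth limits Slc7a11 and Cth most, with 252 to 1150 and 274 to 528 reads per library.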
